A study of Mus musculus with 10 samples.

Results

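Expression of 10 genes of monocytes and macrophages (Lgals3, Trem2, Gpnmb, Cd68, Cd14, Itgam, Ly6c1, Lyz2, Ms4a7 and Clec7a) was followed in mouse liver after an overdose of acetaminophen. The genes were chosen by name, as markers of macrophages that enter injured tissue, and taken from the arrays wherever a probe carried one of these names. They were chosen with earlier results of these data known, so their counts of calls describe the set and do not test it. They had 13 probes, and all 13 passed the filter on dim probes. Each of the 10 genes was thus tested among 24040 genes measured with 39429 probes. The probe of Gpnmb passed only through the treated livers at 48 h, where it was high, so its test was not independent of the filter. Treated mice were female C57BL/6 animals aged 8 weeks that had been fasted for 24 h and had then received 350 mg/kg acetaminophen by intraperitoneal injection. Control mice were of the same sex, strain and age, underwent the same fast and received phosphate buffered saline. Livers were taken 3, 8, 24, 48 and 72 h later, and at each time point 2 Agilent arrays each compared a treated liver (Cy5 dye) with a control liver (Cy3 dye), each from a mouse of its own. The fast was common to treated and control mice, and no array carried an unfasted liver. The dyes were not exchanged on any array, so a dye effect of a probe and the treatment cannot be told apart at a single time point, whereas a constant dye effect cancels in differences between time points.

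The liver holds resident macrophages, the Kupffer cells, and after hepatocyte death it takes up monocytes from the blood, which mature in the tissue into phagocytes. Trem2 is a lipid-sensing surface receptor that signals through the adaptor Tyrobp, and together with Gpnmb, a transmembrane glycoprotein of phagocytes, and Lgals3, the secreted lectin galectin-3, it marks macrophages loaded with lipid and debris. Clec7a (dectin-1) is a receptor for fungal glucans that signals through Syk and Card9. Cd14 binds lipopolysaccharide and passes it to Tlr4, Cd68 is a glycoprotein of the macrophage lysosome, and Lyz2 encodes lysozyme M. Itgam encodes CD11b, which pairs with the Itgb2 subunit on myeloid cells. Ly6c1 is a small membrane-anchored protein known from endothelium, whereas its close relative Ly6c2 marks inflammatory monocytes. Ms4a7 is a membrane protein of macrophages.

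Array probes report only the sequence that they carry, and for Itgam and Ly6c1 the probes differed in their values. The first 30 of the 60 bases of the probes that matter for this are given below as the files hold them, 5′ to 3′, with a CA run in capitals. They are shown because the brightest probe stands for a gene here, and the brightest probe of Itgam (chr7:135261755-135261814, mm9, plus strand) opens with a CA repeat, unlike the 2 other probes of that gene (chr7:135212140-135212199 and chr7:135260275-135260334). Ly6c1 had a bright probe (chr15:74875495-74875554, minus strand) and a dimmer one (chr15:74877785-74877844, minus strand) whose accessions in the files also name Ly6c2. The probes of Lgals3 (chr14:48005414-48005473, plus strand) and Trem2 (chr17:48491537-48491596, plus strand) are given for comparison. The position of these probes within exons was not analysed here.
Itgam A_55_P1977934: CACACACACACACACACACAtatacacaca
Itgam A_55_P1977926: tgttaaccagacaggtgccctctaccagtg
Itgam A_55_P1977929: aagttcacaatcctgtaccactcattgtgg
Ly6c1 A_55_P2064771: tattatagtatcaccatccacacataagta
Ly6c1 A_55_P1961499: agcagttacctgccgcgcctctgatggatt
Lgals3 A_55_P2171116: tttctctctccttatccttcttgtaagaca
Trem2 A_55_P1962937: acagctggatggttgtctgtcaacttctgc
The capitals in the Itgam probe mark a run of 20 bases. Of all 39429 probes, 101 (0.256%) held an unbroken CA or TG run of at least 16 bases.

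Across arrays, 44.8% to 76% of probes were well above background in the treated channel and 59.9% to 83.7% in the control channel, which bounds what could be measured of dim genes. Log2 ratios of the 2 arrays were also correlated, with genes as points, which do not count as replicates. The coefficient was 0.68 for the 3 h pair, 0.81 for the 8 h pair, 0.83 for the 24 h pair, 0.86 for the 48 h pair and 0.24 for the 72 h pair. Every array of treated mouse 3 was scanned on the second of 2 scan days and every other array on the first, so the values of the 2 arrays of a time point are also the values within each scan day. Marker lists are given below by the genes that passed the filter on dim probes, which was all 16 of the hepatocyte list but 17 of 21 for neutrophils, 24 of 26 for monocytes and 18 of 21 for recruitment factors. These lists were also chosen with earlier results of these data known, so their counts are descriptive. In whole liver, fewer cells of a type and less RNA per cell cannot be told apart.

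Most of the 10 genes were called at 48 h. In treated livers 7 of the 10 were higher at 48 h (Lgals3, Trem2, Gpnmb, Cd68, Cd14, Lyz2 and Clec7a), where 18.8% of all genes were higher. Of these 7, Gpnmb had passed the filter on dim probes only through the treated livers at 48 h. At the same time 1 gene (Ly6c1) was lower, where 14.2% of all genes were lower. The median log2 ratio of the 10 genes was 0.92, against -0.01 over all genes tested. At 3 h none of the 10 genes was called in either direction, with 2.45% of all genes higher and 2.92% lower. At 8 h 1 gene (Cd14) was higher, against 7.33% of all genes, and none was lower, against 8.43%. At 24 h 2 genes (Gpnmb and Cd14) were higher, against 7.65% of all genes, and none was lower, against 12.1%. At 72 h none was called in either direction, as for nearly all genes (0.00832% higher and 0.00832% lower). A call here is a Benjamini-Hochberg adjusted p below 0.05 over all genes in limma, with 2 arrays per time point and 10 arrays sharing an estimate of the spread. Without the array of treated mouse 1 or without that of treated mouse 3 at 48 h, the count of higher genes at 48 h was 4.

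**Figure D1:**
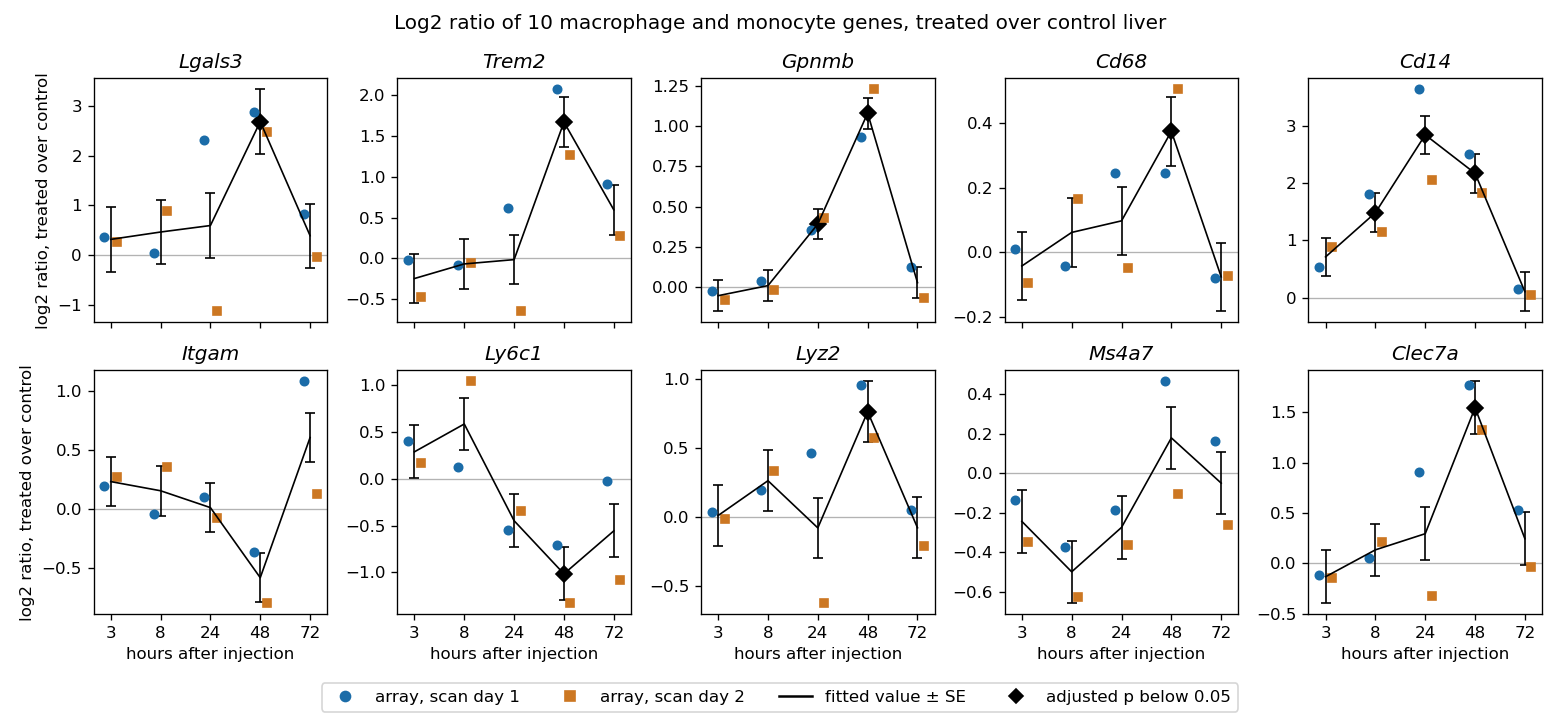
Log2 ratio of treated over control liver (y axis, scale differs between panels) against hours after injection for each of the 10 genes, with each array as a point by scan day, the fitted value ± SE as a line and calls as diamonds. Diamonds stand at 48 h for 8 genes, of which Ly6c1 alone is below 0, and the 2 arrays of Lgals3 at 24 h lie at 2.31 and -1.12.

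Lgals3, the lectin galectin-3, had the largest fitted ratio of the 10 genes at 48 h in the fit reported here. Over the alternative settings its log2 ratio at 48 h reached at most 3.75, whereas that of Gpnmb, dim in control livers, reached 4.41, so the ranking depends on the processing. Its log2 level at 48 h was 12.99 and 11.48 in treated livers, against 10.11 and 8.999 in control livers, without overlap. Its log2 ratios at 48 h were 2.88 on the array of treated mouse 1 and 2.48 on that of treated mouse 3, for a fitted log2 ratio of 2.68 ± 0.65 (SE, n = 2), which is 6.41-fold (adjusted p = 0.0136). Its other log2 ratios were 0.37 and 0.27 (3 h), 0.04 and 0.89 (8 h), 2.31 and -1.12 (24 h), and 0.83 and -0.04 (72 h). Both arrays at 48 h were thus above every other array. No other time point was called, and leaving out either array at 48 h raised the adjusted p of the 48 h ratio to 0.112 (without treated mouse 1) or 0.0863 (without treated mouse 3).

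At 24 h the treated livers were alike in Lgals3 and the control livers were not. The log2 level of Lgals3 was 9.93 and 9.79 in the treated livers at 24 h, against 7.61 in the liver of control mouse 2 and 10.91 in that of control mouse 3. That control liver held the highest Lgals3 level of the 10 control livers, whose median was 8.11. It was also the highest control liver for Trem2 (7.18), Gpnmb (6.19) and Cd14 (8.31), that is for 4 of the 10 genes (40%), against 6.05% of all genes. The same liver was highest for 12 of 27 genes of lipid-associated macrophages, 8 of 24 monocyte genes and 7 of 17 neutrophil genes, among them S100a8 and S100a9, and for 2 of 24 Kupffer cell genes. Without the array that held it, the ratio of Lgals3 at 24 h rested on 1 array, at 2.31 on the log2 scale. With both arrays the fitted log2 ratio was 0.60 and was not called (adjusted p = 0.625). On the remaining array Clec7a was at 0.91. For that gene control mouse 3 was ordinary (7.20, against a control median of 7.19), whereas control mouse 2, which remained, was low (6.59). What set the liver of control mouse 3 apart was not tested.

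Over time, the mean log2 level of Lgals3 in treated livers ran, at descending level, 12.23 ± 1.07 (48 h), 9.86 ± 0.0958 (24 h), 8.73 ± 0.338 (72 h), 8.38 ± 0.538 (8 h) and 8.23 ± 0.172 (3 h), as mean ± SD with n = 2 each. The gaps between 72, 8 and 3 h were smaller than the SD at 8 h, so these neighbours could not be ordered, whereas the steps above them were larger than the SDs. The log2 ratio of Lgals3, however, was not called at 48 minus 24 h (2.08 ± 0.91, adjusted p = 0.18). It also missed the moderated F test of any difference between time points (adjusted p = 0.248). In control livers the mean log2 level of Lgals3 was 9.55 ± 0.785 (48 h), 9.26 ± 2.33 (24 h), 8.33 ± 0.274 (72 h), 7.91 ± 0.243 (3 h) and 7.91 ± 0.0656 (8 h). The control level did not pass the test of any difference over time (adjusted p = 0.641).

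Trem2 was also called at 48 h and at no other time point. Its log2 level at 48 h was 8.997 and 7.70 in treated livers, against 6.93 and 6.43 in control livers, and the treated livers lay above both control livers. The log2 ratios at 48 h were 2.07 and 1.27, with a fitted value of 1.67 ± 0.30 (SE, n = 2, 3.18-fold, adjusted p = 0.0037). Its other log2 ratios were -0.02 and -0.47 (3 h), -0.08 and -0.06 (8 h), 0.62 and -0.64 (24 h), and 0.92 and 0.28 (72 h). At 72 h both arrays were still above 0, with a fitted log2 ratio of 0.60 ± 0.30 that was not called (adjusted p = 0.519). Without the array of treated mouse 1 at 48 h the log2 ratio was 1.27 and the adjusted p rose to 0.0618.

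The mean log2 level of Trem2 in treated livers was 8.35 ± 0.916 at 48 h and 7.22 ± 0.711 at 72 h (SD, n = 2 each). At the other times it was 6.72 ± 0.26 (24 h), 6.61 ± 0.155 (8 h) and 6.41 ± 0.132 (3 h, when 1 of 2 treated livers was well above background). The steps between 48 and 72 h and between 8 and 3 h were larger than either SD, whereas 72 and 24 h, and 24 and 8 h, differed by less than the larger SD. In control livers the means stayed between 6.62 at 72 h and 6.74 at 24 h, a range smaller than the SD of 0.631 at 24 h.

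**Figure D2:**
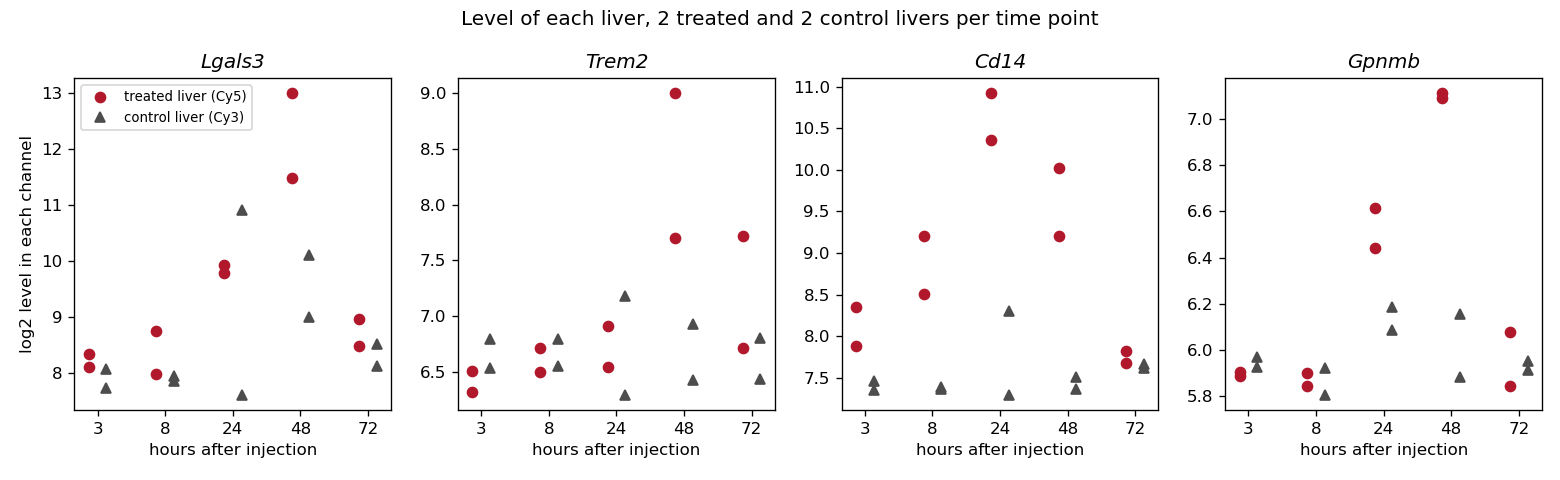
Log2 level (y axis, scale differs between panels) of Lgals3, Trem2, Cd14 and Gpnmb in each treated liver (circles) and control liver (triangles) against hours after injection, 2 livers of each kind per time point. Treated livers lie above control livers at 48 h for all 4 genes, and a control liver at 24 h stands at 10.91 for Lgals3.

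Gpnmb, the third gene of the lipid-laden macrophage group, was near background in most livers. Its probe was well above background in both treated livers at 48 h and in neither control liver, and in neither kind of liver at 3, 8 and 72 h. It passed the filter on dim probes only through those treated livers at 48 h. The log2 level at 48 h was 7.09 and 7.11 in treated livers, against 6.16 and 5.89 in control livers. The fitted log2 ratio was 1.08 ± 0.0953 (SE, n = 2, 2.11-fold, adjusted p = 0.000138), from 0.93 and 1.23 on the 2 arrays. At 24 h the log2 ratios were 0.35 and 0.43 (fitted 0.39 ± 0.0953, adjusted p = 0.0217), with the probe above background in 1 of 2 treated and 1 of 2 control livers. The call at 24 h was lost without either 24 h array (adjusted p = 0.143 and 0.176). Since control livers at 48 h were not well above background, the size of the 48 h ratio is uncertain. Over the alternative settings it ran from 0.86 to 4.41 on the log2 scale.

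Clec7a, the glucan receptor, had log2 levels of 8.83 and 7.68 in treated livers at 48 h, against 7.06 and 6.36 in control livers. The fitted log2 ratio was 1.55 ± 0.26 (SE, n = 2, 2.92-fold, adjusted p = 0.00265), and all 25 alternative settings kept the call. At 24 h its 2 arrays were at 0.91 and -0.32, the same split between arrays as for Lgals3 and Trem2. At 3, 8 and 72 h its log2 ratios lay between -0.15 and 0.53.

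Cd14, the lipopolysaccharide co-receptor, was the only one of the 10 genes called at 8 h. Its probe lies on chromosome 18 (36884969 to 36885028, mm9, minus strand). The log2 ratios of Cd14 were 0.53 and 0.89 (3 h), 1.82 and 1.15 (8 h), 3.63 and 2.05 (24 h), 2.51 and 1.83 (48 h), and 0.16 and 0.06 (72 h). All 10 arrays were thus above 0, and the fitted log2 ratio reached 2.84 ± 0.34 at 24 h (7.17-fold, adjusted p = 0.00068), beside 1.48 ± 0.34 at 8 h (2.8-fold, adjusted p = 0.0214) and 2.17 ± 0.34 at 48 h (4.5-fold, adjusted p = 0.00174). Log2 levels at 24 h were 10.92 and 10.36 in treated livers, against 7.29 and 8.31 in control livers. The 8 h call was lost without either 8 h array (adjusted p = 0.293 and 0.0736). Cd14 is also known to be induced in hepatocytes under inflammation, and the cell source of its RNA was not measured here.

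Lyz2 and Cd68, which macrophages of many tissues express, had smaller ratios that passed the test at 48 h. The size of these ratios depends on the background offset, and with an offset of 0 they were 1.40 for Lyz2 and 0.86 for Cd68 (log2). Lyz2 had log2 levels of 7.64 and 6.71 in treated livers at 48 h, against 6.68 and 6.14 in control livers, with a fitted log2 ratio of 0.76 ± 0.22 (1.7-fold, adjusted p = 0.0294). Without either 48 h array, this call was lost (adjusted p = 0.246 and 0.083). The neighbouring gene Lyz1, a near-identical copy with a probe of its own, had a log2 ratio of 1.68 ± 0.54 at 48 h (adjusted p = 0.0446), and cross-hybridisation between the copies was not tested. Cd68 had log2 levels of 6.69 and 6.61 in treated livers at 48 h, against 6.44 and 6.10 in control livers, with a fitted log2 ratio of 0.37 ± 0.106 (1.3-fold, adjusted p = 0.0274). Its probe was not well above background in any liver at 3 or 72 h, and its 48 h call was lost without the array of treated mouse 3 (adjusted p = 0.313), with median centring (0.145) and with log ratios scaled between arrays (0.0672). Lyz2 at 48 h also lost its call with median centring (adjusted p = 0.125), with scaled log ratios (0.0763), and with the scanner software's ratio or the authors' table (0.095).

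Ms4a7 was not called at any time point. Its log2 ratios at 48 h were 0.47 and -0.11, so the arrays disagreed in sign, and the fitted value was 0.18 ± 0.158 (adjusted p = 0.434). At 8 h both arrays were below 0, at -0.37 and -0.63, where the probe was above background in both control livers and in neither treated liver. At 24 h the ratios were -0.18 and -0.36.

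The 3 probes of Itgam differed in level and in their course in control livers. Its brightest probe, the one that opens with the CA repeat, had log2 ratios of -0.37 and -0.80 at 48 h and of 1.08 and 0.13 at 72 h, neither of which was called (fitted -0.58 ± 0.21, adjusted p = 0.0668, and 0.60 ± 0.21, adjusted p = 0.334). Both channels climbed at this probe. The mean log2 level in treated livers was 9.96 (3 h), 10.22 (8 h), 11.82 (24 h), 11.58 (48 h) and 13.18 (72 h). In control livers it was 9.73 ± 0.0795 (3 h), 10.07 ± 0.516 (8 h), 11.81 ± 0.49 (24 h), 12.17 ± 0.421 (48 h) and 12.57 ± 0.247 (72 h), as mean ± SD with n = 2 each. The control level differed over time (adjusted p = 0.0162), and by 2.84 at 72 h minus 3 h (adjusted p = 0.0238), whereas 2.08% of all genes differed over time in the control channel. Of the 10 genes, Itgam alone passed that test.

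The 2 other Itgam probes did not climb in this way in control livers. A_55_P1977926 had log2 ratios of -0.44 and -0.30 at 48 h (fitted -0.37 ± 0.097, adjusted p = 0.0202 over all probes), and its mean control log2 level lay between 6.99 and 7.40 at all time points. A_55_P1977929 had log2 ratios of 0.51 and -0.23 at 48 h (fitted 0.14 ± 0.171, adjusted p = 0.594). No Itgam probe was called higher at any single time point. For the ratio at 72 h minus 48 h, A_55_P1977926 had 0.49 ± 0.137 (adjusted p = 0.0362 over all probes) and A_55_P1977929 had -0.13 ± 0.242 (adjusted p = 0.757). Among all kept probes with such a repeat run, 19 of 101 (18.8%) were called at 48 h, against 33% of all kept probes. What the repeat probe hybridised with was not tested.

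Ly6c1 also split by probe. The bright probe, which stands for the gene, had log2 levels of 10.39 and 9.91 in treated livers at 48 h, against 11.1 and 11.23 in control livers, so treated livers were below both control livers. Its fitted log2 ratio was -1.02 ± 0.28 (0.495-fold, adjusted p = 0.0248), after 0.58 ± 0.28 at 8 h and -0.45 ± 0.28 at 24 h and before -0.56 ± 0.28 at 72 h, none of which was called. The dimmer probe, whose accessions also name Ly6c2, had log2 ratios of 0.44 and 0.20 at 48 h, opposite in sign to the bright probe (fitted 0.32 ± 0.109, adjusted p = 0.0557 over all probes). No probe for Ly6c2 alone was found, so RNA of the monocyte gene was read only together with Ly6c1. The call of Ly6c1 at 48 h was lost without the array of treated mouse 3 (adjusted p = 0.284) and with the mean of the 2 probes (log2 ratio -0.35, adjusted p = 0.194).

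**Figure D3:**
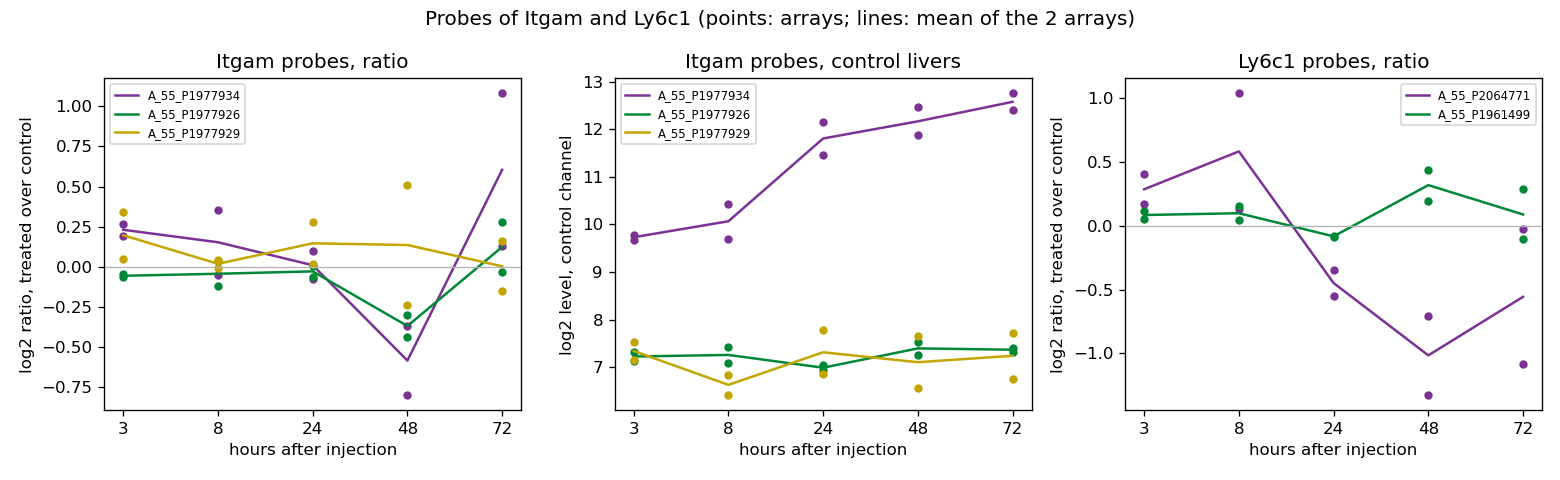
Log2 ratio of treated over control liver for the 3 probes of Itgam (left) and the 2 probes of Ly6c1 (right), and log2 level in control livers for the Itgam probes (middle), against hours after injection. Points are arrays and lines join the means of 2 arrays; the control level of the CA-repeat probe A_55_P1977934 climbs from 9.73 to 12.57 while the 2 others stay below 8.

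Differences between neighbouring time points, in which a constant dye effect cancels, were tested next. None of the 10 genes differed between 3 and 8 h (1.58% of all genes did) or between 8 and 24 h (11.7% of all genes). Between 24 and 48 h, 2 of 10 genes were called against 13.3% of all genes: the ratio of Trem2 rose by 1.69 ± 0.43 (adjusted p = 0.037) and that of Gpnmb was also higher (adjusted p = 0.0147). Between 48 and 72 h, 4 of 10 were called against 22.1% of all genes. The log2 ratio of Cd14 fell by 2.06 ± 0.48 (adjusted p = 0.0175), and that of Clec7a by 1.30 ± 0.37 (adjusted p = 0.0386), and that of Gpnmb was lower (adjusted p = 0.00177), whereas that of Itgam, read by the repeat probe, rose by 1.19 ± 0.298 (adjusted p = 0.0241). No size is given for Gpnmb, whose probe was not well above background in either channel at 72 h or in control livers at 48 h. For Lgals3 the difference between 48 and 72 h was -2.29 ± 0.91 and missed the threshold (adjusted p = 0.114). Without the array of treated mouse 3 at 24 h, which held the control liver described above, Trem2 48 minus 24 h was 1.05 (adjusted p = 0.151) and Gpnmb 48 minus 24 h was no longer called (adjusted p = 0.0503). Of 25 alternatives each, 12 kept the call of Trem2 and 11 that of Clec7a. The test of any difference between time points called 4 of the 10 genes (Gpnmb, Cd14, Trem2 and Clec7a), against 29.3% of all genes.

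Signalling partners of these receptors were read from a list of 20 genes, of which 6 were higher and none lower at 48 h, with a median log2 ratio of 0.20. For this and the following lists, the shares over all genes at 48 h were 18.8% higher and 14.2% lower. Tyrobp, the adaptor of Trem2, was among them at 1.37 ± 0.33 (2.58-fold, adjusted p = 0.0145). The others named by size were Bcl10, which acts below Card9, at 1.00 ± 0.21, the lipid phosphatase gene Inpp5d at 0.88 ± 0.21 and the adaptor gene Hcst at 0.76 ± 0.14. Itgb2, the partner subunit of Itgam, had a log2 ratio of -0.21 (adjusted p = 0.592), and Syk and Card9, below Clec7a, had 0.14 and 0.04 without a call. Of 18 tested genes for chemokines and other recruitment factors, 8 were higher and none lower at 48 h, with a median of 0.48. The monocyte chemoattractants Ccl2 and Ccl7 had log2 ratios of 1.98 ± 0.39 (3.94-fold, adjusted p = 0.00534) and 1.73 ± 0.32 (3.32-fold, adjusted p = 0.00385). The adhesion molecule gene Vcam1 was at 1.38 ± 0.25 and the chemokine gene Ccl4 at 0.71 ± 0.17.

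Other markers of lipid-associated macrophages were also called at 48 h. Of 27 tested, 16 were higher and 3 lower, with a median of 1.15. The 3 lower genes were Acp5 at -1.30 (adjusted p = 0.000183), Atp6v0d2 at -1.215 (adjusted p = 0.00241) and Apoe. Fabp4, a fatty acid carrier, was at 3.11 ± 0.49 (8.65-fold, adjusted p = 0.0018), Anxa2, a phospholipid-binding protein, at 2.80 ± 0.52, Plin2, which coats lipid droplets, at 2.51 ± 0.31, and the lysosomal protease gene Lgmn at 1.95 ± 0.42. Hepatocytes also express several genes of this list, such as Plin2 and Apoe (Apoe fell by 0.86, adjusted p = 0.00162), and its summed level (on the linear scale) was 204000 to 255000 in treated livers at 48 h, against 223000 to 247000 in control livers. Of 24 monocyte genes 9 were higher and 1 lower at 48 h, with a median of 0.38. Chil3, a secreted chitinase-like lectin, was at 3.48 ± 0.48 (11.2-fold, adjusted p = 0.00103), S100a6, a calcium-binding protein, at 3.48 ± 0.74 and Thbs1 (thrombospondin) at 1.79 ± 0.27. F13a1, a transglutaminase subunit, was at 2.09 ± 0.24 (4.25-fold, adjusted p = 0.000443). The probe of F13a1 was not well above background in either control liver at 48 h, so the size of its ratio is uncertain. The monocyte receptor genes Ccr2 and Csf1r had log2 ratios of 0.31 (adjusted p = 0.197) and -0.05 (adjusted p = 0.928). Over all arrays Ccr2 was well above background in only 4 treated and 3 control livers, which limits its ratio. The summed monocyte level is carried by F10, Hp, Msrb1 and Fn1, the brightest genes of that list, some of which hepatocytes are known to make in quantity, so it does not read monocytes. It was 177000 to 292000 in treated livers at 48 h, against 273000 to 322000 in control livers.

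Markers of other cell types were called at 48 h and, in part, before. At 8 h 5 of 24 Kupffer cell genes were higher, against 7.33% of all genes, and 1 was lower, against 8.43%. At 24 h 7 of 17 neutrophil genes were higher, against 7.65% of all genes. At that time 10 of 16 hepatocyte genes were lower, against 12.1% of all genes, and 2 of the 10 macrophage and monocyte genes were called. Of 24 Kupffer cell genes 8 were higher, 2 lower and 14 not called at 48 h, with a median of 0.51, led by the scavenger receptor gene Marco at 3.83 ± 0.84 (14.2-fold, adjusted p = 0.00921), the haem oxygenase gene Hmox1 at 1.71 ± 0.22, the receptor kinase gene Axl at 1.08 ± 0.27 and the metal transporter gene Slc11a1 at 1.01 ± 0.23. The resident markers Clec4f and Timd4 had log2 ratios of 0.07 (adjusted p = 0.909) and 0.02 (adjusted p = 0.94). The summed Kupffer cell level was 22400 to 30700 in treated livers at 48 h, against 13900 to 14800 in control livers. The brightest gene of that list, Nr1h3 (mean log2 intensity of both channels 12.04), was lower at 48 h (-0.47, adjusted p = 0.0136). The Kupffer cell sum also includes Marco and Hmox1, and Hmox1 already had log2 ratios of 2.945 at 3 h and 3.22 at 8 h. That sum is thus not read here as a measure of Kupffer cells. Of 17 neutrophil genes 9 were higher and 1 lower, with a median of 0.76. The calgranulin genes S100a9 and S100a8 were at 3.80 ± 0.53 (13.9-fold, adjusted p = 0.00108) and 3.76 ± 0.50, Retnlg, a resistin-like secreted protein, at 2.14 ± 0.27 and Lcn2, which binds bacterial siderophores, at 1.91 ± 0.27. The summed neutrophil level was 40300 to 61700 in treated livers at 48 h, against 31200 to 40200 in control livers. That sum is weighted to Csf3r, the brightest gene of the list (14.1), which was not called at 48 h (-0.47, adjusted p = 0.051). In control livers the sum was 13200 to 17700 at 3 h, so it is not read here as a measure of neutrophils. The part of neutrophils in the ratios of Cd14 and Clec7a, which they also express, was not tested.

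Endothelial, biliary, lymphoid and hepatocyte lists gave the setting. Of 16 sinusoidal endothelial genes, which bear on Ly6c1, 4 were higher and 1 lower at 48 h, a share of higher genes near that over all genes, with a median of 0.19. The higher genes were Lyve1 (a hyaluronan receptor) at 1.81 ± 0.18, Cdh5 (a junction cadherin) at 1.498 ± 0.17, the Ly6 family gene Ly6a at 1.01 ± 0.24 and the receptor gene Gpr182 at 0.89 ± 0.19. The lower gene was Dnase1l3 at -0.38 (adjusted p = 0.0475). Clec4g at -1.01 (adjusted p = 0.0536) and Kdr at -0.88 (adjusted p = 0.101) were not called. The summed level of the endothelial list was 12000 to 14000 in treated livers, against 12500 to 12900 in control livers. Of 11 biliary genes 4 were higher and 1 lower at 48 h, with Cd24a at 1.48 ± 0.16, Spp1 at 1.15 ± 0.36 and Sox9 at 1.08 ± 0.11 above and Cftr at -0.49 ± 0.14 below 0. Of 17 lymphocyte and dendritic cell genes none was higher and 5 were lower, with Siglech at -0.87 ± 0.20, Cd4 at -0.77 ± 0.25, Flt3 at -0.42 ± 0.11 and Ccr7 at -0.34 ± 0.0847. The probes of Siglech and Cd4 were bright (mean log2 intensity of both channels 14.84 and 11.85), and what they hybridised with was not tested. Of 16 hepatocyte genes none was higher and 11 were lower, and the drug-metabolising enzyme genes Cyp3a11, Cyp2c29 and Cyp2e1 and the tyrosine-degrading enzyme gene Hpd had log2 ratios of -4.20 ± 0.21, -3.10 ± 0.11, -2.73 ± 0.27 and -3.50 ± 0.22. The summed hepatocyte level was 509000 to 712000 in treated livers, against 1330000 to 1480000 in control livers. Equal amounts of RNA were not shown to stand for equal numbers of cells, and the part of this fall in the ratios of the macrophage genes was not tested.

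**Figure D4:**
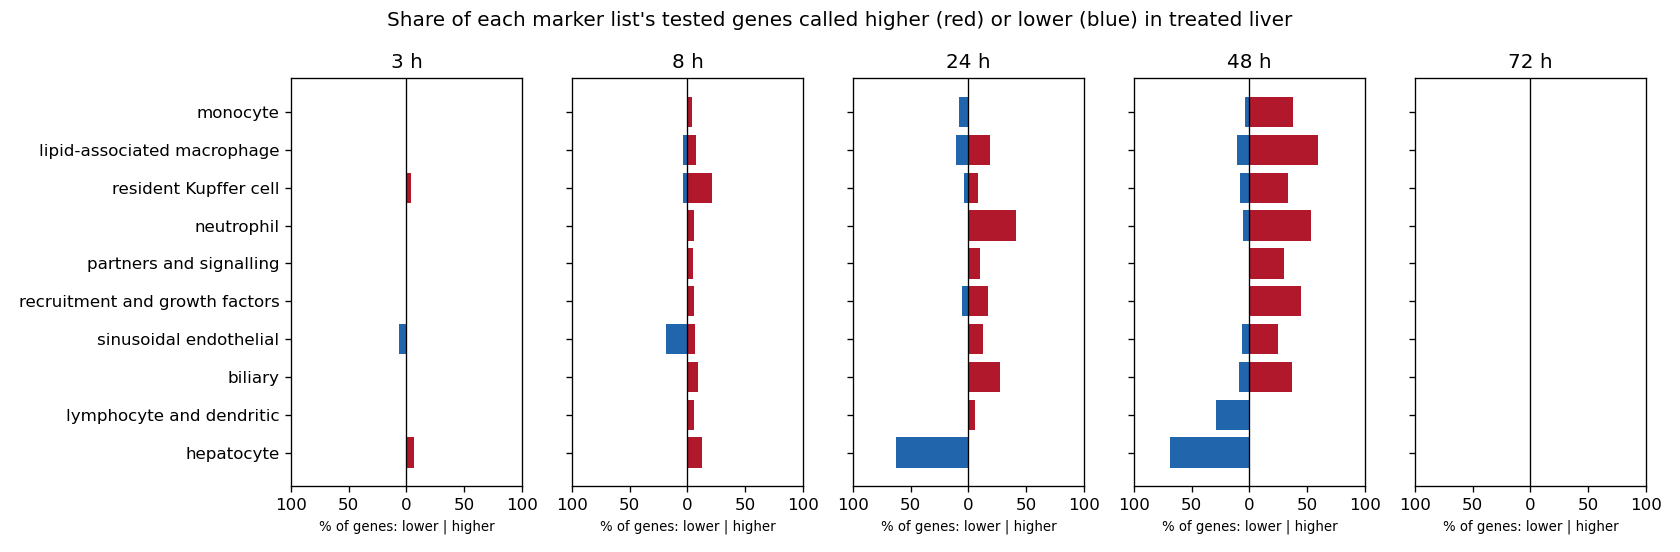
Share (percent, x axis) of the tested genes of each of 10 marker lists that were called higher (to the right) or lower (to the left) in treated liver than in control liver, at 3, 8, 24, 48 and 72 h. At 48 h the lipid-associated macrophage list has 16 of 27 genes higher and the hepatocyte list 11 of 16 lower, and no list has a call at 72 h.

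Among 17551 genes with a current symbol and a value on all 10 arrays, those whose log2 ratios were most like Lgals3 were Lyz1 (Pearson r = 0.99), Marco (0.96), Slpi (0.96), Lrrc25 (0.95) and Inpp5d (0.95). Slpi, a secreted protease inhibitor, had a log2 ratio of 2.86 ± 0.78 at 48 h, and Lrrc25, a leucine-rich repeat protein, had 0.66 ± 0.175. Those most like Trem2 were Actn1 (0.96), Slc7a7 (0.95), Fcgr1 (0.95), C5ar1 (0.94) and Cpxm1 (0.93). Of these, the immunoglobulin receptor gene Fcgr1 was at 0.70 ± 0.177 at 48 h, the complement receptor gene C5ar1 at 0.63 ± 0.143 and the actin crosslinker gene Actn1 at 0.51 ± 0.108. Over the 10 arrays C5ar1 was well above background in only 2 treated and 1 control livers, and Fcgr1 in 3 and 7. Their ratios and correlations thus rest largely on values near background. Slc7a7, an amino acid transporter, had 0.46 ± 0.175 and was not called at 48 h (adjusted p = 0.0775), and the carboxypeptidase-like gene Cpxm1 had 0.93 ± 0.247. Among the 10 genes themselves, Lgals3 and Trem2 correlated at 0.86, and Clec7a correlated with each at 0.95. Lyz2 correlated at 0.94 with Lgals3, Itgam at -0.38 and Ly6c1 at -0.36. These correlations describe 10 arrays in 5 time points that share scan days and slides.

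Promoter letters were compared for the genes of the set, whichever way they moved. RefSeq (GRCm38.p6) held 12 start windows, of 250 bases before to 50 after the start, for 9 of the 10 genes, and Cd14 was not among them. The AP-1 motif TGANTCA, which reads the same on both strands, was present in 4 of the 12 windows (Gpnmb, Cd68, Trem2 and Ms4a7), against 7.81% of 32851 windows of all genes. The PU.1 motif GAGGAAGT, searched on both strands, was present in 1 window (Ly6c1), against 3.2% of all, and an NF-kB motif in none, against 1.63%. The 100 bases before the start of Trem2 (chr17:48346301-48346400, plus strand), Cd68 (chr11:69666171-69666270, minus strand) and Ms4a7 (chr19:11334696-11334795, minus strand) are shown 5′ to 3′ along the gene, with the AP-1 match in capitals, since Trem2 and Cd68 were higher at 48 h and Ms4a7 was not called.
Trem2: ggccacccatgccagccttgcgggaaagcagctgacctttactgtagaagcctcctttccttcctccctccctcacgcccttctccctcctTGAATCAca
Cd68: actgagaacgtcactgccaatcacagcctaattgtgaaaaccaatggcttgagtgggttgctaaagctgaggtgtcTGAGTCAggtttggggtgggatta
Ms4a7: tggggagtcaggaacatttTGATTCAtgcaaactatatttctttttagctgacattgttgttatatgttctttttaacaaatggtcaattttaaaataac
The match starts 9 bases before the start in Trem2, 24 in Cd68 and 81 in Ms4a7. The window of Lgals3, the gene with the largest ratio at 48 h in the fit reported here, held none of the 3 motifs. A match is a run of letters and not a measured binding site.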

How the data were processed

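Liver RNA was measured on 10 Agilent 2-colour arrays, 2 per time point, on 4 slides scanned over 2 days. Per the file headers, Agilent Feature Extraction 10.7.3.1 read the images, and the deposited files give the mean and local background intensity of each spot in both channels on a linear scale, the software's log10 ratio of Cy5 over Cy3, and flags. The authors' deposited value table holds a score that equals 1.44 times that log10 ratio on every array (correlation of 1, median of 0), in a unit the sources used here do not give, and it was rescaled to log2 as an alternative.

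Intensities were background-corrected with normexp (offset 50), normalized within arrays by loess and tested in limma 3.58.1 (R 4.3.3), all computed here. On 4 arrays, 3 to 23 spots had a local background over 5 times the array's median, and with them the normexp fit added so large a constant to a channel that the median absolute deviation of the log2 ratios fell to 0.009 on the 72 h array of treated mouse 1. In the fit these spots took the array's median background, and they were then left out. That step was chosen after seeing the data, and the deposited backgrounds were run as an alternative. With it, the deviation was 0.164 to 0.405 over the arrays.

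Outlier spots were left out, and control spots had weight 0. A probe was kept where some time point had it well above background on its 2 arrays in the treated channel or on its 2 arrays in the control channel (29659 of 39429 probes), and a gene was its brightest kept probe. Of all probes, 26581 were named through their accession, 2597 by symbol, 492 by an older symbol, and 9759 kept the file's name. Each time point was a coefficient in lmFit and eBayes over 10 arrays with 5 residual degrees of freedom, two-sided and adjusted by Benjamini-Hochberg over all genes. Channel levels, on a log2 scale, are after loess and Aquantile. The files give probe positions on mm9. The number of arrays limits the precision.

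The members and marker lists were chosen with earlier results of these data known. Named genes are all 10 members with every probe, up to 4 called genes of each list with the largest ratio at the time point with most calls, and the 5 genes most like Lgals3 and Trem2; any other gene was named after its values were seen. The mice are separate animals by their labels, and treated mouse numbers were not taken as pairs, since deviations from the time point means correlated between time points at -0.08 to 0.33. Alternatives were other background, normalization, filter, probe, prior and block settings and leaving out each array. The limma step was tested on simulated data.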

Additional observations from a re-analysis of the deposited data

Results flagged for a closer look

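Of the 10 genes, 5 had a change of ratio between neighbouring time points that passed the limma test of the difference itself, for 6 differences in all. Trem2 was 1.69 higher on the log2 scale at 48 h than at 24 h (adjusted p = 0.037). Gpnmb was 0.69 higher at 48 h than at 24 h (adjusted p = 0.0147), and its ratio at 72 h minus 48 h was -1.05 (adjusted p = 0.00177), but its probe was not well above background in either channel at 72 h, in control livers at 48 h, or on 1 of the 2 arrays at 24 h, so the size of both differences is uncertain. Cd14 at 72 h minus 48 h was -2.06 (adjusted p = 0.0175) and Clec7a was -1.30 (adjusted p = 0.0386). Itgam was 1.19 higher at 72 h than at 48 h (adjusted p = 0.0241) at its CA-repeat probe, the only change of the 6 that ran upward after 48 h. With the mean of the 3 probes, Itgam 72 minus 48 h was 0.52 (adjusted p = 0.0845). Single livers were not tested as outliers within a time point, which had 2 arrays.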

How the results depend on the processing

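The number of the 10 genes called higher at 48 h, 7 as reported, was 5 with median centring, 5 with log ratios scaled between arrays, and 6 with the scanner software's ratio, the authors' table or the stricter filter. Over the 10 fits that left out an array (the lone array left at a time point assumed to vary like the others), the number of the 10 genes called higher ranged from 0 to 1 at 8 h, from 1 to 3 at 24 h and from 4 to 7 at 48 h, and the number called lower from 0 to 1 at 8 h and from 0 to 2 at 48 h. The number that differed between time points ranged from 0 to 2 for 24 minus 8 h, from 0 to 4 for 48 minus 24 h, from 1 to 6 for 72 minus 48 h, and from 2 to 6 over all time points, and the control level differed in 0 to 1. With median centring in place of loess, 0 genes were higher at 8 h, 1 was higher at 24 h, 0 were lower at 48 h, 0 differed for 48 minus 24 h, 1 for 72 minus 48 h, 0 over time and 0 in the control level. With a normexp offset of 0, 1 gene was lower at 8 h and 1 differed for 48 minus 24 h. With log ratios scaled between arrays, 0 were lower at 48 h, 1 differed for 48 minus 24 h and 2 over time. With the scanner software's ratio or the authors' table, 0 differed for 48 minus 24 h and 2 over time. Without a filter these counts were 1 and 2. With the stricter filter, which leaves out Gpnmb, 1 was higher at 24 h and 1 differed for 48 minus 24 h. With the mean of a gene's probes, 0 were lower at 48 h and 0 differed in the control level. With an intensity trend, 1 was lower at 8 h and 1 differed for 24 minus 8 h. With the slide as a block, 0 were higher at 8 h, 1 was lower at 8 h, 1 was higher at 24 h, 0 were lower at 48 h, 4 differed for 48 minus 24 h, 7 for 72 minus 48 h and 0 in the control level. The replicate block, which is also the scan day, left 7 genes higher at 48 h and made 1 (Ms4a7) lower at 8 h; the numbers do not pair the mice. Of alternatives chosen after seeing the data, the deposited backgrounds gave 1 higher at 24 h and 4 that differed for 48 minus 24 h, the other Itgam probe gave 2 lower at 48 h and 0 in the control level, and the second Ly6c1 probe gave 0 lower at 48 h, with the sign of Ly6c1 turned to 0.32. The cause of these moves was not tested. Calls of all genes ranged from 24 (median centring) to 1781 at 3 h, against 1291, from 114 to 4143 at 8 h, against 3789, from 786 to 5037 at 24 h, against 4741, from 1482 to 8596 at 48 h, against 7926, and from 0 to 388 at 72 h, against 4. Of 2241 values of single genes under an alternative, 69 lost a call, 37 gained one and 1 turned. With median centring the 48 h calls of Cd68 and Lyz2 were among those lost. Signals near background limit Gpnmb, Cd68 and Ms4a7, and among other named genes also Ccr2, Fcgr1 and C5ar1.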
